A study of Mus musculus with 22 samples.

Results

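The 5 libraries described here came from the small intestine of GRWT mice that drank plain water, out of 22 libraries in the series. They were chosen by their counts of Myh11, the heavy chain of smooth muscle myosin. In 3 libraries Myh11 was above 100 on the counts-per-million (CPM) scale of the library total, at 429 in IEC replicate 4, 463 in IEC replicate 5 and 393 in ileum replicate 1, and these are called muscle-rich. In the other 2 it was below 100, at 20.5 in ileum replicate 2 and 6.51 in ileum replicate 3, and these are called muscle-poor. Because a measured value chose the classes, every gene's difference between them is given as a description without a test. The split of 3 against 2 crosses the tissue labels, since ileum replicate 1 fell with both IEC libraries.

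GRWT mice carry wild-type glucocorticoid receptor (GR), and GRDim mice carry a point-mutant GR that forms dimers poorly. All mice were females of 8 to 14 weeks, of a strain labelled FVB/N and given as FVB/NJ in the study's methods, with GRDim mice and their wild-type controls bred from heterozygous parents and kept in a conventional animal house. Each genotype received normal drinking water or 25 mM ZnSO4 in the water for 7 days, and each of the 4 conditions was sampled as ileum, a washed piece of the last stretch of small intestine, and as IEC, intestinal epithelial cells lysed in place and scraped from the inner wall. The labels do not tie libraries to single mice.

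The wall of the small intestine holds a single layer of epithelium over a lamina propria of fibroblasts, vessels and immune cells, with smooth muscle and enteric nerves outside it. Scraped epithelium should therefore be poor in muscle and whole ileum rich in it. Interferons are cytokines that act on receptors of nearly every cell type. Through transcription factors they induce antiviral proteins, guanylate-binding and immunity-related GTPases that attack intracellular microbes, and the machinery that loads peptides onto MHC molecules. Intraepithelial lymphocytes, most of them CD8+ T cells, sit among the epithelial cells themselves.

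The same Myh11 cut-off put 12 of the 22 libraries in the muscle-rich class and 10 in the muscle-poor class. Muscle-rich libraries comprised 5 labelled ileum and 7 labelled IEC, and muscle-poor libraries 7 labelled ileum and 3 labelled IEC, so the labels did not follow the muscle markers. In GRDim water all 3 IEC libraries were muscle-rich and all 3 ileum libraries muscle-poor, in GRDim zinc the reverse held, and in GRWT zinc the classes were again 3 against 2. Total counts of the 5 libraries lay between 13149951 and 15221001, so that 3 counts were worth 0.197 to 0.228 CPM. Mitochondrial transcripts took 4.05 to 4.46% of counts and ribosomal protein transcripts 1.81 to 2.07%. One library elsewhere in the series stood apart, GRWT zinc ileum replicate 3, with the ileal bile acid-binding gene Fabp6 at 18.2 CPM and ribosomal protein transcripts at 0.775% of counts. That library shares the muscle-poor class of GRWT zinc with ileum replicate 2. Over this class summed ileal bile acid genes ran from 446 to 13700 CPM and summed proximal small intestine genes from 785 to 9640. Summed absorptive enterocyte genes ran from 42700 to 154000 there. Calls over the list classes are also given without GRWT zinc ileum replicate 3.

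Levels below are CPM of library sizes scaled by the trimmed mean of M-values (TMM), in the order IEC replicate 4, IEC replicate 5 and ileum replicate 1 for the muscle-rich libraries and ileum replicates 2 and 3 for the muscle-poor ones. Log2 differences are muscle-rich minus muscle-poor, so a negative value marks a gene that was higher in the muscle-poor pair. Of 16389 genes tested, 3219 (19.6%) were higher by more than 1 log2 unit in the muscle-rich class with no overlap between the classes, and 499 (3.04%) were higher in the muscle-poor class by the same rule. Genes whose classes did not overlap, whatever the size of the difference, are called apart, and 35.8% of all genes were apart on the muscle-rich side and 33.2% on the muscle-poor side. A list's count is to be read against the share of its own rule, and its median against a median of 0.02 over all genes. Scaling to the counts of epithelial markers in place of all genes moved that overall median to 0.59. In bulk tissue, fewer cells of a type and less RNA per cell cannot be told apart.

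Promoter windows are shown for 4 interferon-induced GTPase genes, because members of these related families went in opposite directions between the classes. Igtp and Irgm2, immunity-related GTPases, were higher in the muscle-poor pair, as was the guanylate-binding protein gene Gbp7, whereas Gbp2b was higher in the muscle-rich libraries. Each window runs from 250 bases before to 50 bases after the RefSeq start of the gene (GRCm38.p6, all on the plus strand), at chr11:58199306-58199605 for Igtp, chr11:58214727-58215026 for Irgm2, chr3:142530086-142530385 for Gbp7 and chr3:142594597-142594896 for Gbp2b. Capitals mark the letters TTCNNNGAA of a gamma-activated site and GAAANNGAAA of an interferon-stimulated response element, searched on both strands. The searches allowed the motifs to overlap.
Igtp: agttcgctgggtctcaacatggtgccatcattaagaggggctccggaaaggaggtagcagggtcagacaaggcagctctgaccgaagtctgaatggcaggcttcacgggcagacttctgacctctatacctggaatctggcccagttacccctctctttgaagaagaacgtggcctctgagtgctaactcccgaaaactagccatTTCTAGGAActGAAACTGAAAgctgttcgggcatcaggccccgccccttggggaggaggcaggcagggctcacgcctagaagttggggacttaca
Irgm2: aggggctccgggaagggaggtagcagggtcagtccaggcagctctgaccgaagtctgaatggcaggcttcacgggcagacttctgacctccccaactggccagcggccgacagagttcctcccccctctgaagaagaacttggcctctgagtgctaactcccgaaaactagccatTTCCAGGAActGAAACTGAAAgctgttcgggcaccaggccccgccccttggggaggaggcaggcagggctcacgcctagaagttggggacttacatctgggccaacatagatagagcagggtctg
Gbp7: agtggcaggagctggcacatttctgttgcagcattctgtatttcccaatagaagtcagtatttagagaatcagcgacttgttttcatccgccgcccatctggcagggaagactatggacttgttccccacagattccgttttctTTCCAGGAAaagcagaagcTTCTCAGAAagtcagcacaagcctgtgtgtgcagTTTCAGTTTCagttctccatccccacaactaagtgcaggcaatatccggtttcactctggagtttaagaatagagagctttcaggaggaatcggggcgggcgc
Gbp2b: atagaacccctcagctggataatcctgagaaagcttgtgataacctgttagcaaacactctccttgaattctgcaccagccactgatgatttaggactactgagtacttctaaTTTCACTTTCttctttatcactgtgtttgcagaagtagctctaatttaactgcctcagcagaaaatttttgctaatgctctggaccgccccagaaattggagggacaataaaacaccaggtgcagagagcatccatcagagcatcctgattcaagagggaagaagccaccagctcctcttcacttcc
The Igtp and Irgm2 windows each held one motif of either kind side by side, at 45 and 34 bases before the start in Igtp and at 75 and 64 in Irgm2. Gbp7 held gamma-activated letters at 106 and 87 bases and response-element letters at 53 bases before its start, and Gbp2b held the response element at 137 bases only. Response-element letters stood in 5 of the 6 immunity-related GTPase genes with a window, in all 5 guanylate-binding protein genes with a window and in 34 of 78 genes (43.6%) over all interferon lists, against 3.99% of 27025 genes. Of all 32851 windows, 3.44% held them and 8.3% held gamma-activated letters. Gamma-activated letters stood in 4 of those 6 immunity-related GTPase genes and 2 of those 5 guanylate-binding protein genes, against 9.55% of all genes. Of windows not shown, that of Gbp5, higher in the muscle-rich class, held 2 gamma-activated sites. That of Irgm1, higher in the muscle-poor pair, held none. The letters of both motifs thus stood in genes of either direction, and no binding was measured here.

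The stroma genes gave the check on the classes and nothing more, since Myh11 had chosen them. Myh11 itself stood at 394, 427 and 364 CPM against 22.7 and 7.16, and Acta2, smooth muscle actin, at 519, 513 and 467 against 15.3 and 5.43. The collagen gene Col3a1 of fibroblasts stood at 376, 367 and 301 against 7.72 and 15.6, and Pecam1 of endothelium at 28.1, 33.1 and 22.5 against 1.51 and 1.49. Every measured gene of the smooth muscle (10), fibroblast (8), enteric neuron and glia (12) and endothelium (7) lists was higher in the muscle-rich libraries beyond the threshold, with medians of 5.20, 4.90, 4.67 and 4.21. The neuron and glia median was 3.87 with genes absent from the muscle-poor pair set at their bound. Adipoq of fat cells was at 13.3 and 17.4 CPM in the IEC libraries and at 0 in ileum replicate 1, so the muscle-rich class was not uniform in this fat cell gene. Genes of erythrocytes moved the same way, 4 of 4 measured, with a median of 2.91.

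Epithelial identity was present in all 5 libraries. Vil1, a bundler of microvillus actin, stood at 2200, 2130 and 2100 CPM against 3870 and 3770, and Epcam, an epithelial adhesion molecule, at 2550, 2640 and 2750 against 3460 and 3230. Both were lower in the muscle-rich libraries without overlap, by log2 differences of -0.83 and -0.34, and per epithelial count that of Epcam turned to 0.23. Krt8, a keratin of simple epithelia, went with them at 3620, 3450 and 3710 against 5770 and 6170. The pan-epithelial list had a median of -0.44 with 8 of 10 genes apart on the muscle-poor side (33.2% of all genes), and its median became 0.14 when counts were scaled to this list itself. Elf3, an epithelial transcription factor, went the other way within the list, at 256, 284 and 238 against 174 and 184.

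Genes of absorptive enterocytes were more unequal than the pan-epithelial ones. Mgam, a brush-border maltase, stood at 501, 602 and 545 CPM in the muscle-rich libraries and at 2340 and 2460 in the muscle-poor pair, 4.36-fold higher in the latter. Sis, sucrase-isomaltase, stood at 1430, 1760 and 1650 against 5680 and 6160, a 3.68-fold difference. Apob, the structural protein of chylomicrons, stood at 1630, 1920 and 1450 against 5030 and 4430. In all 3 genes the muscle-poor pair lay well above every muscle-rich library. Of 18 list genes 7 were higher in the muscle-poor pair beyond the threshold and 2 in the muscle-rich class, with a median of -0.89, or -0.32 per epithelial count. Slc2a2, the basolateral glucose transporter, was one of those 2, at 6.38, 5.64 and 2.67 against 1.51 and 2.36.

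Region and lineage lists within the epithelium differed from one another. Fabp6, the ileal bile acid-binding protein, stood at 7820, 8380 and 6430 CPM against 11000 and 11600, and the bile acid uptake gene Slc10a2 at 1110, 1070 and 1380 against 1770 and 1480, so both were present in every library, and the Slc10a2 difference of -0.46 turned to 0.11 per epithelial count. Nr1h4, the bile acid receptor FXR, was at 154, 152 and 184 against 305 and 309. Its target Nr0b2, the repressor SHP, went the opposite way at 13.1, 16.8 and 9.04 against 5.20 and 3.78. Gata4, a transcription factor of proximal small intestine, was low in all libraries, at 2.17, 2.41 and 1.24 against 5.29 and 6.45. The ileal bile acid median was -0.38 and changed sign to 0.19 per epithelial count, while that of the proximal list was -1.0 and -0.44.

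Muc2, the main mucin of goblet cells, was at 828, 821 and 637 CPM against 996 and 1250, and Fcgbp, which is secreted with mucus, at 2100, 2250 and 1980 against 4050 and 4340. The goblet median of -0.38 turned to 0.19 per epithelial count, and the Muc2 difference of -0.56 to 0.01. Lyz1, the lysozyme of Paneth cells, stood at 3480, 4180 and 3220 against 1960 and 2830, and 4 of 10 Paneth genes were apart on the muscle-rich side, near the 35.8% of all genes, with a median of 0.33. Per epithelial count the median was 0.91, beside 0.59 for all genes. Lgr5, a receptor that marks crypt stem cells, stood at 22.5, 19.1 and 23.2 against 15.4 and 13.1, and 6 of 8 stem genes were apart on that side with a median of 0.45, or 1.02 per epithelial count. Proliferation genes went the other way. Mki67 was at 122, 126 and 95.8 against 237 and 241, and all 12 list genes were apart on the muscle-poor side, against 33.2% of all genes, with a median of -0.47. Per epithelial count that median became 0.10.

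Tuft and endocrine cells are rare chemosensory cells of the epithelium. Trpm5, the cation channel of tuft cell taste signaling, was higher in the muscle-poor pair at 0.602, 0.619 and 0.911 CPM against 1.43 and 4.17. Other genes on the tuft list were higher in the muscle-rich class, Ptgs1 at 21.5, 22.2 and 16.7 against 1.09 and 0.629 and Dclk1 at 6.26, 4.33 and 3.64 against 0.923 and 0.472. Stromal cells also make Ptgs1 and neurons also make Dclk1, and the 5 measured genes of the list split 3 to 1 between the sides. Sst, somatostatin, was higher in the muscle-rich class without overlap, at 22.4, 25.4 and 23.3 against 17.1 and 16.1. Its log2 difference of 0.51 was the highest of 12 enteroendocrine genes, which had a median of 0.14 and a lowest value of -0.60. Of the 12, 4 were apart on the muscle-rich side and 3 on the muscle-poor side, against 35.8% and 33.2% of all genes.

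Genes that epithelium induces against adherent microbes were divided, and several were highest in ileum replicate 3. Saa1, an acute-phase serum amyloid, stood at 2.95, 2.96 and 2.93 CPM against 19.1 and 104. Nos2, inducible nitric oxide synthase, stood at 50.8, 76.1 and 22.3 against 256 and 478. Slc6a14, an amino acid transporter, was uneven in the muscle-rich class too, at 6.32, 4.12 and 36.1 against 85 and 175. Pigr, the receptor that carries IgA across the epithelium, stood at 2420, 2490 and 2240 against 8190 and 9530, a 3.72-fold difference. Reg3g, an antimicrobial lectin, overlapped at 1420, 1810 and 1420 against 945 and 1850. Of the 14 genes 6 were beyond the threshold on the muscle-poor side and 1 on the other, with a median of -1.08, or -0.50 per epithelial count. That other gene was Lcn2, an iron-scavenging protein, with 122 counts over the muscle-rich libraries and 1 over the muscle-poor pair, a ratio of 77.2 with a 95% counting interval of 13.6 to 3070.

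**Figure D1:**
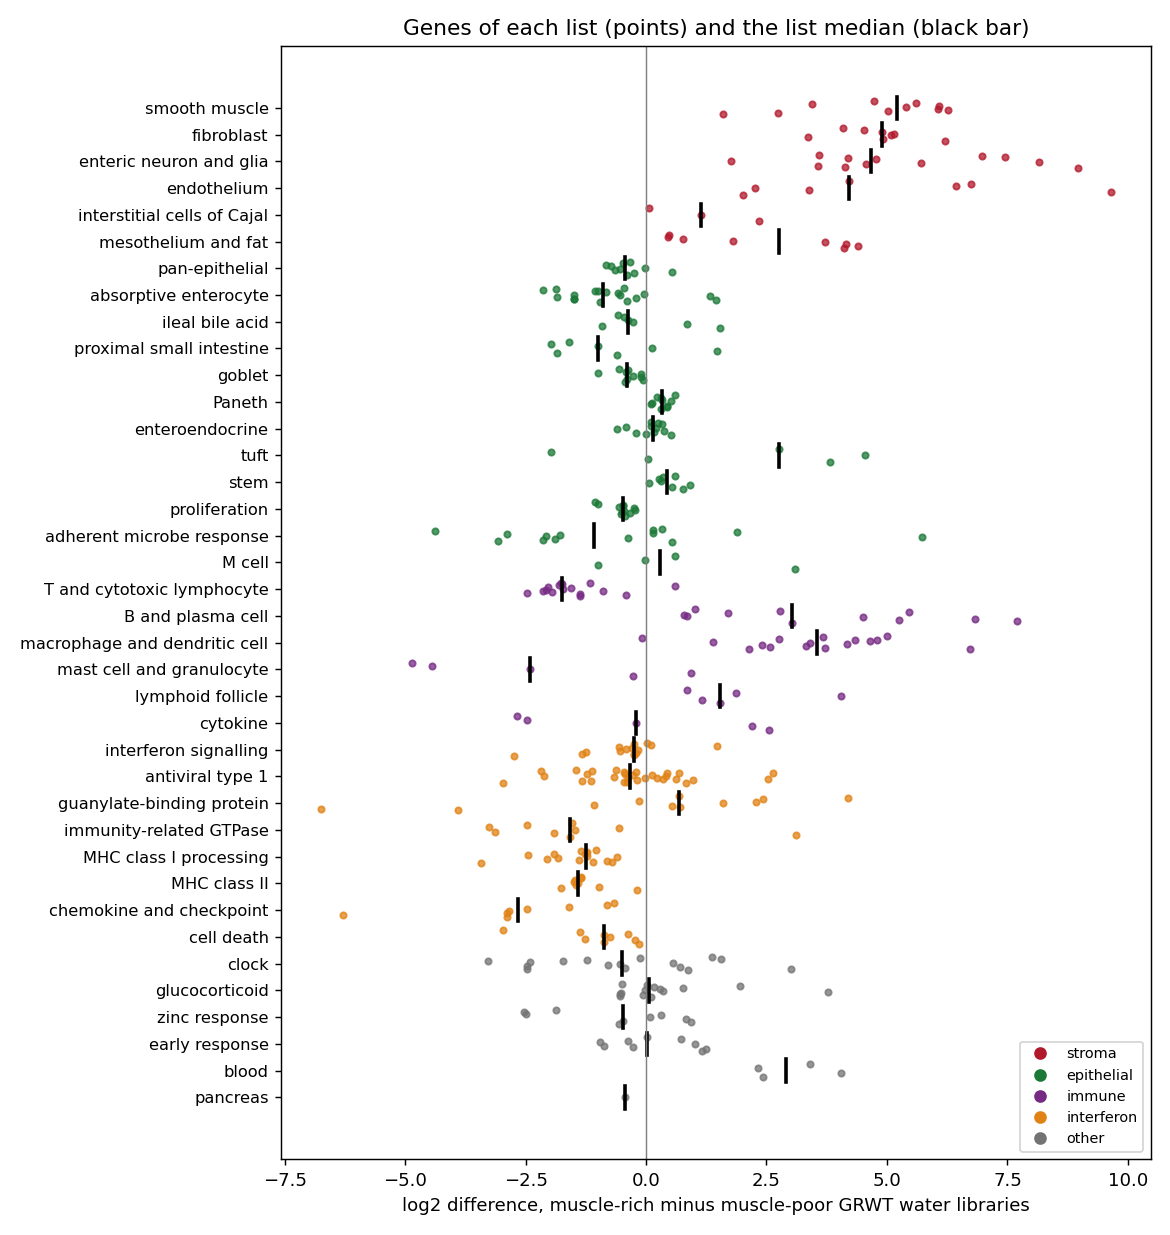
Log2 difference, muscle-rich minus muscle-poor, of every tested list gene in GRWT water, with one point per gene and a black bar at each list's median. Stroma, plasma cell and macrophage lists lie to the right, with medians of 5.20 for smooth muscle and 3.55 for macrophages, and the T cell, MHC and chemokine lists lie to the left, with medians of -1.74, -1.25 for MHC class I, -1.42 for MHC class II and -2.65.

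Immune genes went in both directions. Plasma cell and macrophage genes were higher in the muscle-rich class. Jchain, the joining chain of IgA in plasma cells, stood at 1720, 1340 and 1330 CPM in the muscle-rich libraries and at 13.2 and 12.7 in the muscle-poor pair. Tnfrsf17, the plasma cell survival receptor BCMA, had 85 counts against 0, at least 8.97-fold higher with the 0 set to a floor of 3 counts over the pair. C1qa, a complement subunit of resident macrophages, stood at 45.7, 50.3 and 37.5 against 1.59 and 1.57, and Csf1r, the receptor that keeps macrophages alive, at 49, 46.7 and 37.7 against 3.86 and 3.07. Of 11 B and plasma cell genes 8 were higher in the muscle-rich class and none in the muscle-poor pair, with a median of 3.04. Of 16 macrophage and dendritic cell genes 15 were, with none on the other side and a median of 3.55.

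Cytotoxic lymphocyte genes went the opposite way. Ccl5, a T cell chemokine, stood at 21.3, 20.2 and 13.1 CPM against 66 and 135. Gzmb, granzyme B, stood at 24.6, 15.3 and 12.7 against 40.9 and 112, and Gzma at 30.2, 29.8 and 17 against 56.5 and 160. Cd8a, the CD8 coreceptor, stood at 11.3, 11.8 and 8.98 against 35.3 and 52.1, and Itgae, the integrin CD103 that holds lymphocytes to epithelium, at 15.5, 15.1 and 11.5 against 36.6 and 56.2. In each of these 5 genes ileum replicate 3 was the highest library. Cd4, the coreceptor of helper cells, leaned to the muscle-rich side at 11.1, 12.9 and 7.29 against 6.63 and 7.08. Of 16 genes on the list 13 were higher in the muscle-poor pair beyond the threshold and none in the muscle-rich class, with a median of -1.74, or -1.16 per epithelial count.

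Proteases of mucosal mast cells marked the muscle-poor pair. Mcpt1, a chymase of mast cells within the epithelium, stood at 1.81, 1.65 and 0.586 CPM against 43.8 and 35.1, 29.2-fold higher in the pair. Mcpt2, a neighboring gene of the same family, stood at 0.903, 0.962 and 0.26 against 15.5 and 15.6. Cpa3, mast cell carboxypeptidase, stood at 0.663, 0.412 and 0.195 against 2.43 and 2.20. These were the only 3 of 5 measured mast cell and granulocyte genes beyond the threshold on that side. None was on the other side, and the list's median was -2.41 with a highest value of 0.94. Other mast cell genes were too low to test, with at most 12 counts for Fcer1a and 11 for Ms4a2, the subunits of the IgE receptor, in any of the 5 libraries. Mcpt genes are close copies, and the authors' counting left out reads that fit several places.

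Interferon genes as a whole leaned to the muscle-poor pair, and by family they did not move alike. Of 106 genes in 8 lists, 48 were higher there beyond the threshold and 8 were higher in the muscle-rich class, with a median of -0.81. The receptor and signaling genes were nearest to level. Ifnar2, a subunit of the type I interferon receptor, was higher in the muscle-rich class at 7.05, 8.45 and 6.77 CPM against 2.69 and 2.68. Irf1, an early interferon-induced factor, stood at 194, 227 and 174 against 393 and 554, and Irf8, a related factor, at 84.6, 88.2 and 74 against 164 and 248. Socs1, the feedback inhibitor of the pathway, was higher in the pair at 2.71, 3.09 and 2.73 against 10.7 and 27.3. The 15 signaling genes had a median of -0.25, which changed sign to 0.32 per epithelial count.

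Antiviral effectors were mixed. Zbp1, a sensor of Z-form nucleic acid that starts necroptosis (GRCm38 chr2:173206612-173218923, minus strand), stood at 14.1, 10.5 and 11.2 CPM against 78 and 110, 7.9-fold higher in the muscle-poor pair. Ifit1bl1, a relative of the RNA-binding Ifit1, stood at 55.3, 55.5 and 35.6 against 174 and 264, and Rsad2, viperin, at 8.07, 5.43 and 7.03 against 32.3 and 27.1. Oas2, an RNA-activated synthetase, went the opposite way at 3.67, 1.65 and 3.90 against 0.587 and 0.393, as did Ifi27l2a at 4.88, 5.5 and 5.20 against 0.839 and 0.944. Of 30 genes 8 were beyond the threshold on the muscle-poor side and 2 on the muscle-rich side, against 3.04% and 19.6% of all genes. The median of -0.32 became 0.25 per epithelial count.

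The GTPase families parted company. Igtp stood at 25.5, 29.3 and 19.7 CPM against 178 and 294, 9.48-fold higher in the muscle-poor pair, and Irgm2 at 39.8, 55.4 and 35.2 against 188 and 297, 5.6-fold higher. Irgm1, a regulator of the same family, stood at 52.8, 53.3 and 56.5 against 116 and 200. Of 9 immunity-related GTPase genes 6 were higher in the pair and 1 in the muscle-rich class, with a median of -1.57, or -1.0 per epithelial count. Gbp2b had the reverse pattern of Igtp at 36.5, 36.4 and 33.1 against 2.18 and 1.65, 18.4-fold higher in the muscle-rich class, with Gbp3 at 16.4, 17.6 and 14.4 against 1.93 and 4.01 and Gbp5 at 6.99, 5.91 and 5.40 against 0.839 and 1.65. Gbp7 was higher in the pair at 24.6, 24.5 and 20.5 against 32.8 and 65.2. Gbp10 had 195 counts over the pair and 3 over the muscle-rich libraries, a ratio of 103 with an interval of 34.6 to 502. Of 11 guanylate-binding protein genes 4 were thus on the muscle-rich side and 3 on the muscle-poor side, with a median of 0.68. Over all genes those sides held 19.6% and 3.04%. Gbp6 and Gbp10 share exon sequence with one overlapping annotated gene over 29% and 46.3% of their exon length, and near copies in both families lose reads, so single members are uncertain.

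Antigen presentation genes leaned to the muscle-poor pair with few exceptions. Nlrc5, the activator of MHC class I genes, stood at 5.30, 4.12 and 3.51 CPM against 39.4 and 53.2, 10.7-fold higher in the muscle-poor pair. Tap1, which pumps peptides into the endoplasmic reticulum, stood at 47.3, 40.6 and 31 against 180 and 254, 5.47-fold higher. Psmb9 and Psmb8, subunits of the immunoproteasome, stood at 52.8, 41.8 and 37.6 against 160 and 207 and at 70.8, 60.6 and 54.8 against 202 and 238. B2m, the light chain of class I molecules, stood at 1680, 1460 and 1580 against 3210 and 3200. All 16 class I genes were apart on the muscle-poor side, against 33.2% of all genes, and 13 of them were beyond the threshold. Per epithelial count all 16 were still negative, with medians of -1.25 and -0.67. Ciita, the activator of class II genes, stood at 54.4, 41.2 and 29.1 against 130 and 153, and H2-DMa, which edits class II peptides, at 69.2, 54.7 and 48.9 against 148 and 176. Of 9 class II genes 7 were beyond the threshold on that side and none on the other, with a median of -1.42. Class II genes were thus higher in the pair in which 15 of 16 macrophage and dendritic cell genes were lower.

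Checkpoint and cell death genes leaned the same way. Ubd, the ubiquitin-like protein FAT10, stood at 6.69, 2.68 and 1.63 CPM against 245 and 336, 79.2-fold higher in the muscle-poor pair. Ido1, which breaks down tryptophan, stood at 34, 34.6 and 32.5 against 218 and 282, 7.42-fold higher. Cd274, the checkpoint ligand PD-L1, stood at 9.64, 14.4 and 8.26 against 55.9 and 98.3. Cxcl9, a chemokine for T cells, overlapped at 8.43, 6.87 and 5.86 against 8.39 and 13.8. Mlkl, the pore-forming executor of necroptosis, stood at 13.2, 12.9 and 12.2 against 30 and 36, 2.58-fold higher in the pair, and Ripk3, the kinase that activates it, at 26.9, 25.5 and 25.6 against 44.5 and 51.6. Of 8 chemokine and checkpoint genes 6 were higher in the pair and none in the muscle-rich class, with a median of -2.65, and of 9 cell death genes 3 were, with a median of -0.88.

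Lymphocyte genes and immunity-related GTPase genes both leaned to the muscle-poor pair, as lists of other kinds did. The summed level of the 16 T and cytotoxic lymphocyte genes was 98.3 to 150 CPM in the muscle-rich libraries and 314 and 634 in the muscle-poor pair, and no defining gene of the list was at 0 in the pair. The summed immunity-related GTPase genes were at 180 to 219 against 625 and 1030. Among these 5 libraries ileum replicate 3 was the highest for both sums. Within the muscle-rich class the order differed, with IEC replicate 4 highest for lymphocyte genes and IEC replicate 5 for the GTPases. The summed guanylate-binding protein genes were at 134 to 164 against 74 and 148. The part of lymphocytes in the interferon values was not tested.

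The other conditions gave a test that the choice of classes did not fix. For each gene the muscle-rich minus muscle-poor difference in GRWT water was compared with the same difference in GRDim water, in GRWT zinc, and in the mean of all 3 other conditions, with edgeR's quasi-likelihood test over all 16389 genes and Benjamini-Hochberg adjustment. A gene passed at an adjusted p under 0.05 and a difference of more than 0.8 on the log2 scale. A negative value means that the difference leaned more to the muscle-poor side in GRWT water than elsewhere. All 3 comparisons share the GRWT water libraries, the classes in the other conditions also came from Myh11, and in GRDim water class and tissue label coincide.

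Against the other conditions together 86 genes passed on the negative side (0.525%) and 45 on the positive side (0.275%), and against GRDim water 97 (0.592%) and 65 (0.397%). The interferon lists held 29 of the 86 and 31 of the 97, out of 106 genes tested, and none on the positive side. Immune lists held 3 and 7, out of 57, and epithelial lists 3 and 3, out of 115. No gene of the 48 on the stroma lists passed in any of these comparisons, with smooth muscle medians of -0.14 and -0.06. These medians are departures of the muscle difference in GRWT water from the other conditions and from GRDim water. Against GRWT zinc 1 gene passed on the negative side (0.0061%) and 2 on the positive side (0.0122%), none of them on the interferon lists, with 2780 genes at an unadjusted p under 0.05, and DESeq2 called 57 and 347. The number of edgeR calls in that comparison hung on the 2 muscle-poor GRWT zinc libraries. Without ileum replicate 2 it rose steeply, with only replicate 3, the library that stood apart, left in the class. Without replicate 3 it did not rise.

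Those counts leaned on single libraries. Without GRWT water ileum replicate 3, which leaves 1 muscle-poor library in that condition and assumes that it varies like the other groups, negative calls over all genes fell to 18 and 30, with 6 and 12 of them on the interferon lists and 1 and 3 on the immune lists. With GRWT zinc ileum replicate 3 left out, 205 and 241 genes passed on the negative side, among them 37 and 46 interferon genes, 19 and 20 immune genes and 5 and 8 epithelial genes. Of the 273 that then passed on the positive side against GRDim water, 1 was on the interferon and 6 were on the epithelial lists. Without GRWT zinc ileum replicate 2, which leaves replicate 3 alone in its class, 711 genes passed on the negative and 591 on the positive side against the other conditions. Without both IEC libraries of GRWT water, which leaves only ileum-labelled libraries there, negative calls fell to 36 and 41, with 17 and 19 on the interferon lists.

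Zbp1 shows what the test compared. Its levels were 10.5 to 14.1 CPM in the muscle-rich and 78 and 110 in the muscle-poor libraries of GRWT water, but 105 to 111 and 109 to 157 in GRDim water. In GRWT zinc they were 7.57 to 14.8 and 37.4 to 46.1. The difference in GRWT water departed from that in GRDim water by -2.71 ± 0.31 (SE) (edgeR, adjusted p = 0.000141) and from the other conditions by -2.30 ± 0.27 (adjusted p = 0.000252). In GRDim water the muscle-rich libraries were thus within or just under the range of the muscle-poor ones, whereas in both GRWT conditions every muscle-rich library lay below every muscle-poor one.

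Other interferon genes also differed less between the classes in GRDim water, and for some the classes overlapped there. Irgm2 was at 215 to 235 CPM in the muscle-rich and 193 to 265 in the muscle-poor libraries of GRDim water, and departed by -2.48 ± 0.27 (SE) from GRDim water (edgeR, adjusted p = 6.51e-05). Igtp was at 247 to 296 and 289 to 458 there, and departed by -2.85 ± 0.36 (adjusted p = 0.00041). Ido1 was at 169 to 192 and 261 to 318, departing by -2.20 ± 0.22 (adjusted p = 3.45e-05), so a difference between its classes was kept in GRDim water at a smaller size. Ubd was at 228 to 299 and 386 to 496, departing by -5.50 ± 0.72 (adjusted p = 0.000613), and its classes also stayed apart there. Mlkl was at 37.1 to 42.3 and 36.6 to 47.1, departing by -1.32 ± 0.17 (adjusted p = 0.000341). Zbp1, Irgm2, Ido1, Ubd, Mlkl and Ifit1bl1 passed against both references under every alternative run, 29 and 30 of them.

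**Figure D2:**
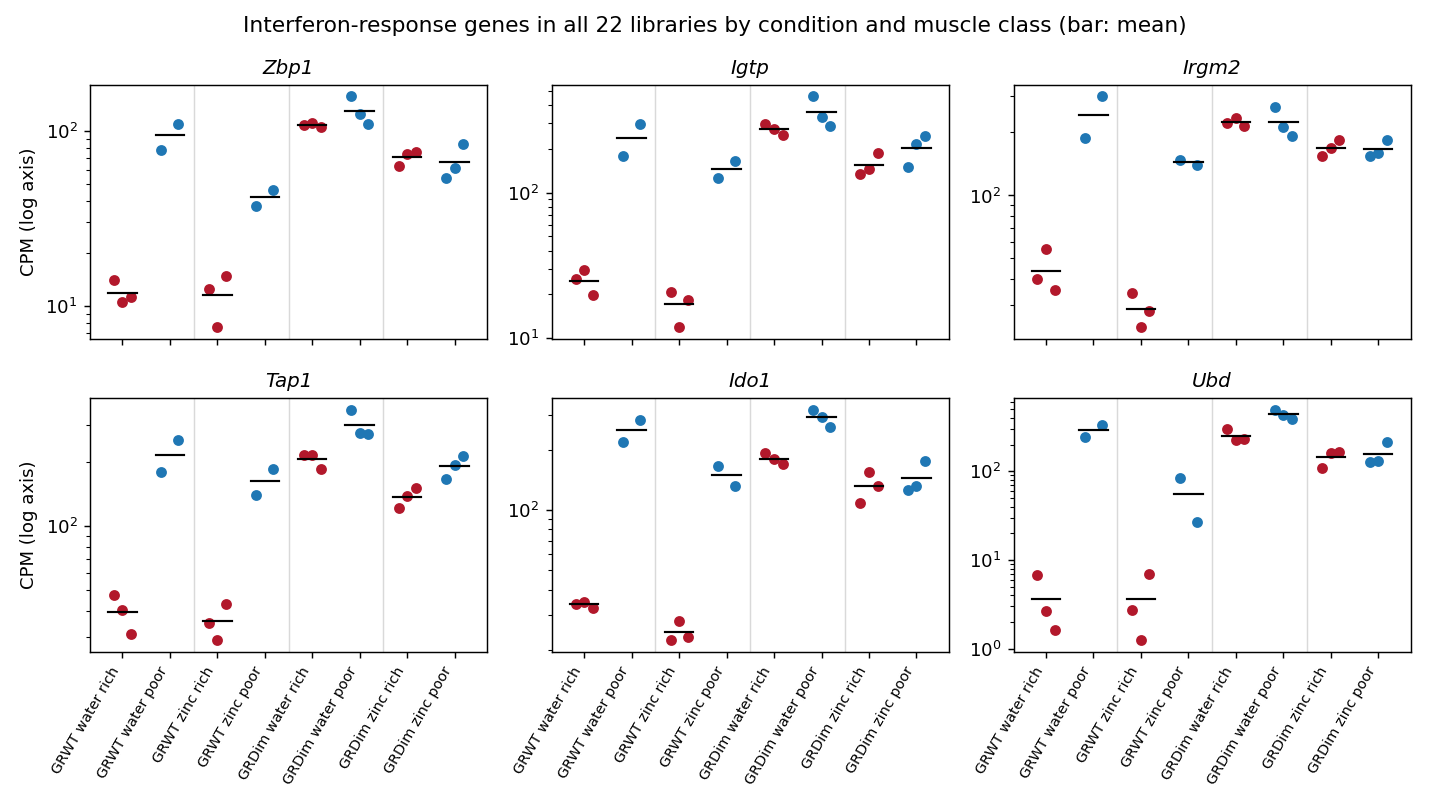
Levels of Zbp1, Igtp, Irgm2, Tap1, Ido1 and Ubd in all 22 libraries by condition and muscle class, in TMM-scaled CPM on a log axis, with one point per library and a bar at each mean. In both GRWT conditions the muscle-rich points sit far below the muscle-poor ones, and in both GRDim conditions the classes lie closer together, as for Zbp1 in GRDim water at 105 to 111 against 109 to 157.

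Among the MHC genes, Tap1 was at 185 to 217 CPM in muscle-rich and 272 to 353 in muscle-poor libraries of GRDim water, and departed from that condition by -1.91 ± 0.27 (SE) (edgeR, adjusted p = 0.000688). Psmb9 departed by -1.47 ± 0.20 (adjusted p = 0.00062) and Nlrc5 by -3.07 ± 0.51 (adjusted p = 0.00544). Of the 16 class I genes 8 passed against GRDim water and 5 against the other conditions, all negative. Without GRWT water ileum replicate 3 these counts were 3 and 0, and the Nlrc5 call was lost, as it was without both IEC libraries. H2-DMa, of the class II list, departed by -1.15 ± 0.18 from GRDim water (adjusted p = 0.0021) and was one of 2 class II genes that passed there, or of 6 with GRWT zinc ileum replicate 3 left out.

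Guanylate-binding protein genes were uneven here too. Gbp7 leaned to the muscle-rich side in GRDim water, at 75.6 to 78.1 CPM against 45.1 to 62.6. It departed from the mean of the other conditions by -1.80 ± 0.33 (SE) (edgeR, adjusted p = 0.0097). Against GRDim water alone it did not pass, and Gbp10 was the only gene of the family that did. Gbp2b kept its muscle-rich lean in both genotypes, at 46.4 to 53.6 against 1.70 to 3.17 in GRDim water, with a departure of -0.23 (adjusted p = 0.939). Cxcl9, which overlapped between the classes of GRWT water, was at 30.1 to 52.2 against 10.8 to 19.8 in GRDim water and departed by -2.12 ± 0.42 (adjusted p = 0.0152). The Gbp7 and Cxcl9 calls were lost without GRWT water ileum replicate 3, the Gbp7 call also without both IEC libraries, and that of Cxcl9 also without those or without ileum replicate 1. Ripk3 departed by -0.71 from GRDim water (adjusted p = 0.0336) and Elf3, in the opposite direction, by 0.62 (adjusted p = 0.0416), both short of the 0.8 threshold.

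**Figure D3:**
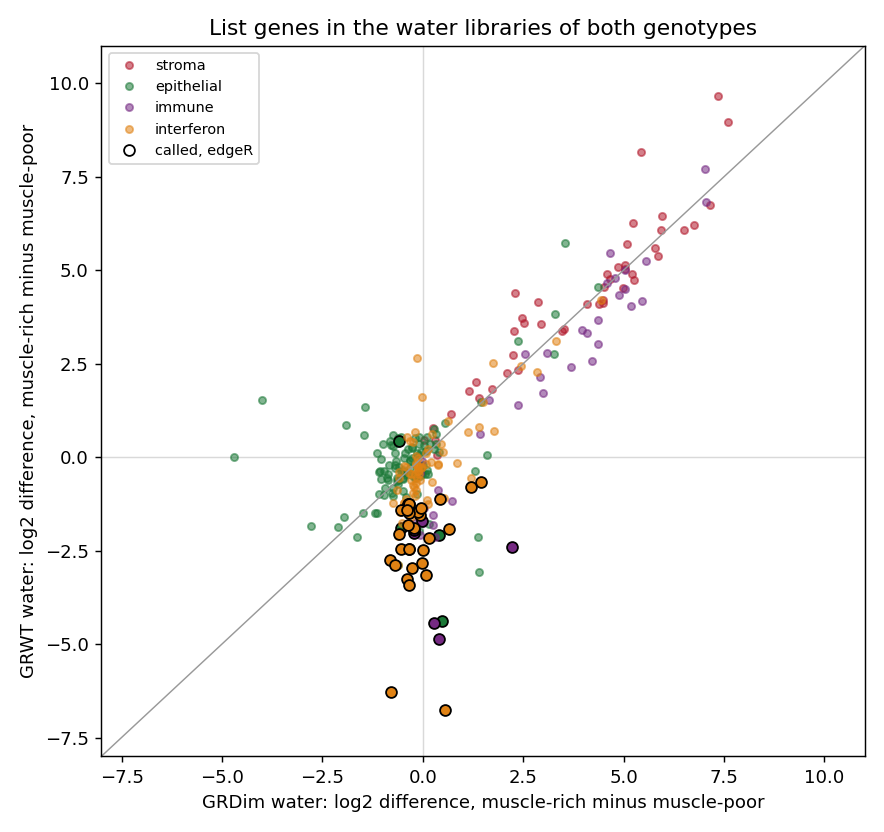
Log2 muscle-rich minus muscle-poor difference of each list gene in GRDim water (x axis) and in GRWT water (y axis), colored by stroma, epithelial, immune or interferon list, with the diagonal drawn and genes that passed edgeR's test of the difference from GRDim water outlined in black. Stroma genes lie near the diagonal, and 31 interferon genes are outlined below it.

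The mast cell protease gene Mcpt1 was high in the muscle-poor libraries of GRWT mice on either drinking water and low in both classes of GRDim water. It was at 4.48 to 9 CPM in muscle-rich and 3.81 to 6.1 in muscle-poor libraries of GRDim water. In GRWT zinc it was at 0.895 to 3.05 and 20.4 to 58.3. Its difference departed from GRDim water by -5.27 ± 0.63 (SE) (edgeR, adjusted p = 0.000207), and from the other conditions by -3.53 ± 0.54 (adjusted p = 0.00295), under every alternative run. Mcpt2 departed from GRDim water by -4.71 ± 0.64 and Cpa3 by -4.63 ± 0.63 (both adjusted p = 0.000613). Cpa3 was at 1.24 to 2.09 in the muscle-rich and 0.305 to 0.386 in the muscle-poor libraries of GRDim water, the reverse of GRWT water.

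Among lymphocyte genes 4 of 16 passed against GRDim water and none against the other conditions. Itgae departed from GRDim water by -1.70 ± 0.34 (SE) (edgeR, adjusted p = 0.0169) and Ccl5 by -2.12 ± 0.43 (adjusted p = 0.0205), with Ccl5 at 88.2 to 105 CPM in muscle-rich and 113 to 131 in muscle-poor libraries of GRDim water. Cd8a and Nkg7, a cytotoxic granule protein, passed at adjusted p = 0.0418 and 0.038, calls lost in 19 and 15 of 30 alternatives. None of the 16 passed without GRWT water ileum replicate 3, and 12 passed against the other conditions and 11 against GRDim water without GRWT zinc ileum replicate 3. The summed T and cytotoxic lymphocyte list was at 567 to 647 CPM in muscle-rich and 473 to 695 in muscle-poor libraries of GRDim water, so the classes overlapped there. The summed immunity-related GTPase list overlapped too, at 1000 to 1150 against 934 to 1330, while the summed class I genes stayed lower in the muscle-rich libraries, at 8460 to 9210 against 10900 to 11900. Whether lymphocytes bear on these values was not tested.

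Of the epithelial lists only the microbe-response genes passed on the negative side. Pigr departed from GRDim water by -1.35 ± 0.19 (SE) (edgeR, adjusted p = 0.000688), at 5810 to 5980 CPM in muscle-rich and 8380 to 8840 in muscle-poor libraries there. Saa1 departed by -4.85 ± 0.97 (adjusted p = 0.0194), at 123 to 214 against 36.9 to 225, and Duoxa2, which matures the hydrogen peroxide-producing oxidase, by -2.48 (adjusted p = 0.0375). The Saa1 and Duoxa2 calls were lost in 7 and 14 of 30 alternatives, each among them without GRWT water IEC replicate 4, ileum replicate 1 or ileum replicate 3, and 42.8% of the Duoxa2 exons overlap a neighboring gene. Defa24, a Paneth cell defensin with near copies, named after its value was seen, passed on the positive side at 1.01 (adjusted p = 0.0448). No gene of the absorptive enterocyte, goblet, stem or proliferation lists passed against either reference with all libraries. With GRWT zinc ileum replicate 3 left out, 1 absorptive enterocyte gene passed on the positive side against each reference, and 1 tuft gene on the negative side against each. Against GRDim water 1 proliferation gene then passed on the negative side, 3 enteroendocrine, 1 ileal bile acid and 1 Paneth gene passed on the positive side, and 6 microbe-response genes passed in place of 3.

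The tissue labels gave a last comparison within GRWT water that Myh11 did not choose. Between the 2 IEC and 3 ileum libraries no gene passed edgeR's test, the smallest adjusted p was 0.302, and 2086 genes had an unadjusted p under 0.05. DESeq2 called 10 genes higher in IEC and 33 higher in ileum. Without ileum replicate 1, the muscle-rich library of that label, the labels and the muscle classes are the same. The 2166 and 409 edgeR calls of that setting then describe the split that Myh11 chose and are no test of the labels. Within the ileum label alone, replicate 1 against replicates 2 and 3, the list medians were 5.14 for smooth muscle, -1.35 for MHC class I, -2.41 for immunity-related GTPases and -1.94 for T and cytotoxic lymphocytes. Each kept the sign it had with the IEC libraries included, as did pan-epithelial genes at -0.40. The mesothelium and fat median was 0.31 within that label against 2.76 over all 5 libraries.

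Clock genes also separated the classes. Dbp, an output gene of the clock, stood at 1.08, 1.58 and 4.55 CPM against 20.2 and 26, 9.59-fold higher in the muscle-poor pair, and Per3, a repressor, at 3.73, 4.19 and 6.38 against 27.2 and 25.3. Arntl, the activator BMAL1, went the opposite way at 75.5, 71.7 and 56.7 against 28.4 and 24.6, with its relative Npas2 at 76.7, 81.7 and 64 against 29.5 and 21.2. Ileum replicate 1 lay between the IEC libraries and the muscle-poor pair in each of these 4 genes. Of 16 clock genes 6 were beyond the threshold on the muscle-poor side and 3 on the muscle-rich side, and the median of -0.49 became 0.09 per epithelial count. Dbp was at 0.923 to 1.5 in muscle-rich and 6.95 to 9.61 in muscle-poor libraries of GRDim water, and its departure from the other conditions was 0.07 (edgeR, adjusted p = 0.995). Npas2 alone of the list passed, by 1.16 ± 0.21 (SE) against GRDim water (adjusted p = 0.00702), a call lost without GRWT water ileum replicate 3 or without both IEC libraries. No source used here gives the hour at which tissue was taken.

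**Figure D4:**
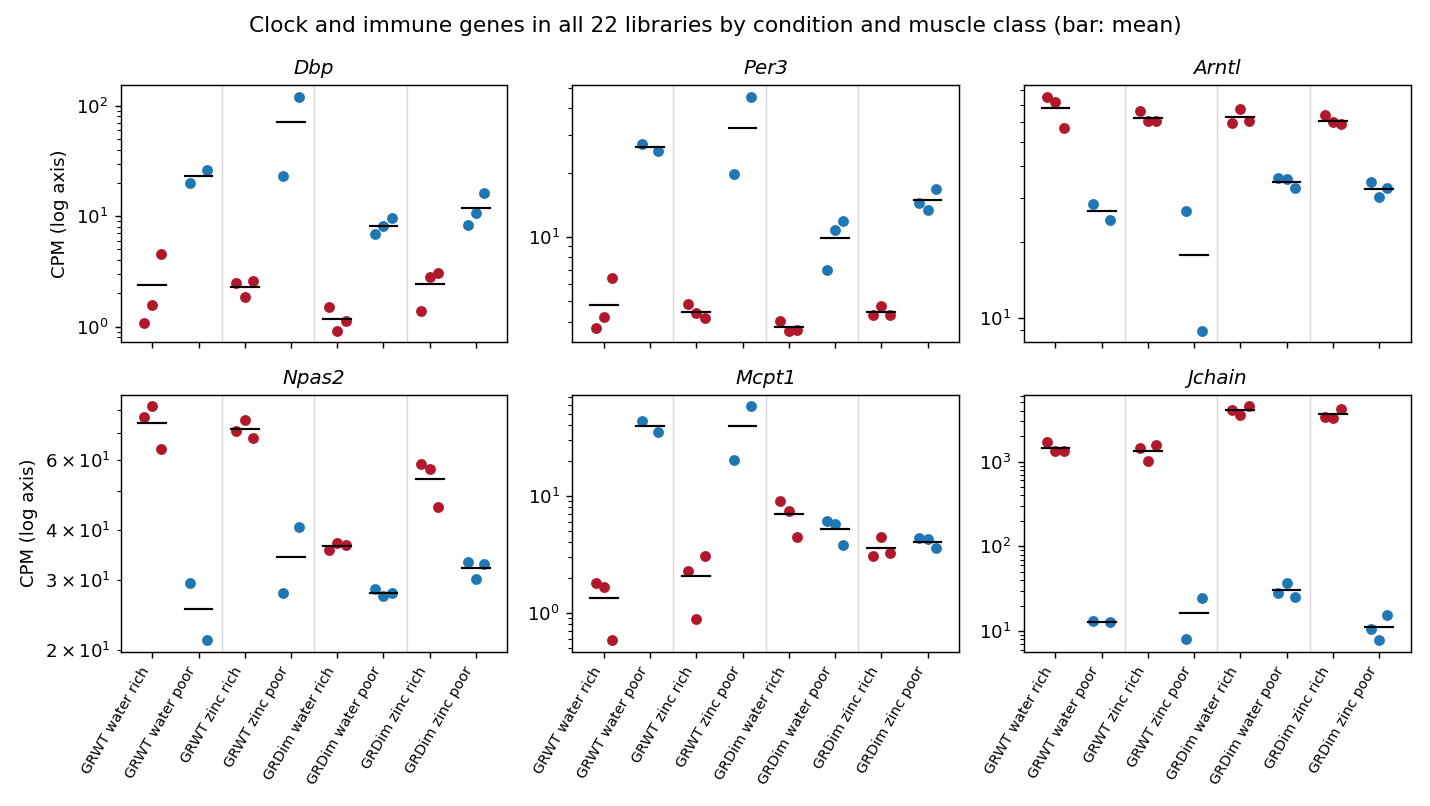
Levels of Dbp, Per3, Arntl, Npas2, Mcpt1 and Jchain in all 22 libraries by condition and muscle class, in TMM-scaled CPM on a log axis, with one point per library and a bar at each mean. Dbp and Per3 are lower and Arntl higher in the muscle-rich class of each condition, and Mcpt1 is high only in the muscle-poor libraries of GRWT mice.

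Of the genes tied to the study's treatments, the glucocorticoid list was near level and the zinc list leaned to the muscle-poor pair. Nr3c1, which encodes GR, overlapped at 276, 289 and 273 CPM against 308 and 276. The 14 glucocorticoid-responsive genes had a median of 0.07, with 2 on the muscle-rich side beyond the threshold. Of those, Pdk4, a brake on glucose oxidation, stood at 5.90, 4.47 and 3.25 against 0.42 and 0.236. Mt1, a zinc-induced metallothionein, was higher in the muscle-poor pair at 38.7, 27.2 and 69.6 against 168 and 163, and Mt2 followed at 4.10, 2.06 and 8.98 against 35.8 and 22.8, although 73.5% of the Mt2 exons overlap another gene. Mt1 departed from the other conditions by -1.45 ± 0.35 (SE) (edgeR, adjusted p = 0.0481), a call lost in 23 of 29 alternatives. Slc39a4, the zinc importer of enterocytes, stood at 266, 259 and 204 against 339 and 335, a difference of -0.47 that turned to 0.10 per epithelial count. The zinc list had a median of -0.47, or 0.10 per epithelial count. Of its 9 genes 3 were beyond the threshold on the muscle-poor side, against 3.04% of all genes, and none on the other.

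Genes outside the lists were named by the same rules. On the muscle-poor side Il18bp, the soluble inhibitor of interleukin 18, stood at 6.20, 6.05 and 4.75 CPM against 55 and 72.7, 11.3-fold higher, and at 59.7 to 66.1 against 67.3 to 90.7 in GRDim water. It departed from GRDim water by -3.18 ± 0.33 (SE) (edgeR, adjusted p = 6.16e-05) under every alternative run. Upp1, uridine phosphorylase, stood at 169, 143 and 148 against 1070 and 1400, 8.04-fold higher, and departed by -2.26 ± 0.34 (adjusted p = 0.00167). Mbl2, a mannose-binding lectin, had 496 counts in the pair and 2 in the muscle-rich libraries, a ratio of 392 with an interval of 108 to 3250. Ceacam10 and Cd177, surface proteins, stood at 4.52, 5.84 and 7.68 against 46.7 and 74 and at 6.32, 6.87 and 7.61 against 40.6 and 69.6. Abca12, a lipid transporter, stood at 1.08, 0.619 and 1.69 against 8.98 and 17.8.

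On the muscle-rich side the 10 genes outside the lists with the largest ratios had no count in the muscle-poor pair. Lrrc32, an anchor of latent TGF-beta, had 775 counts and was at least 81.3-fold higher, Mmrn2 and Adgrl4 of endothelium at least 47.3-fold and 38.9-fold, and Ncam1, a neural adhesion molecule, at least 27.3-fold. Among genes that passed on the positive side, Hsd17b13, a lipid droplet enzyme, stood at 141, 134 and 167 CPM against 31.8 and 23.1 in GRWT water and at 49.8 to 59.9 against 71.3 to 88.5 in GRDim water. Its departure from GRDim water was 3.00 ± 0.34 (SE) (edgeR, adjusted p = 0.000139). Pkd2, the polycystin 2 channel, stood at 40.3, 36.5 and 33.5 against 1.09 and 1.26, and at 27.1 to 29.8 against 7.78 to 7.91 in GRDim water, a departure of 3.08 ± 0.35 (adjusted p = 0.000115). Nlrp9b, an epithelial inflammasome sensor, stood at 25.7, 31.8 and 27.7 against 13.8 and 9.76, and departed by 1.69 ± 0.26 (adjusted p = 0.00167).

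The 3 genes that passed against GRWT zinc were 2 chaperones and an iron uptake receptor. Dnajb1, a partner of HSP70, was level between the classes in GRWT water at 61.1, 61.2 and 65.1 CPM against 60.8 and 55.2, and was at 48.3 to 51.7 against 82 to 102 in GRWT zinc, a departure of 1.00 ± 0.14 (SE) (edgeR, adjusted p = 0.018). Dnaja1, of the same family, departed by 0.86 ± 0.13 (adjusted p = 0.0203). Tfrc, the transferrin receptor, stood at 185, 186 and 185 against 299 and 335, and at 297 to 458 against 174 to 261 in GRWT zinc, a departure of -1.61 ± 0.24 (adjusted p = 0.0203). None of these 3 calls held without GRWT water ileum replicate 3 or without GRWT zinc ileum replicate 3. Against the mean of the other conditions Tfrc departed by -1.36 (adjusted p = 0.00145) under every alternative run.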

How the data were processed

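Gene counts per library were made and deposited by the authors, who trimmed single-end stranded reads with Trimmomatic, aligned them to mm10 with HISAT2 2.0.4 and counted unique reads over exons with featureCounts. The annotation release and the strand setting are not given in the sources used here, so values of genes that overlap a neighbor are uncertain. The count table holds 54838 Ensembl genes, of which 54723 matched a name in GENCODE M21 or NCBI tables, and 24164 were at 0 in all 22 libraries. One column name occurs in duplicate, and those 2 GRDim water ileum libraries were used without a replicate number.

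From these counts TMM-scaled CPM and log2 differences were computed with edgeR 4.0.16 in R 4.3.3, over 16389 genes kept by edgeR's expression filter. One model held the 8 groups of condition and muscle class. The test was edgeR's quasi-likelihood test with Benjamini-Hochberg adjustment. A call needed an adjusted p under 0.05 and a log2 difference beyond 0.8, the cut-offs stated in the study's results. On simulated counts with 100 genes changed by 1 and 100 by 2 log2 units in each comparison, the smaller difference was recovered in 49% (other conditions), 41% (GRDim water) and 34% (GRWT zinc) of genes, and the larger in 90%, 82% and 84%. DESeq2 1.42.0, other scalings and filters, a tissue covariate, a replicate block and leaving out libraries were the alternatives. The study's text gives 5 to 6 samples for each condition, as many as the libraries here, and no label ties a library to a mouse, so p-values reflect the spread between these libraries. Intervals and floors of 3 counts cover counting error only.

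The libraries, the 38 gene lists of 407 genes and the tests were chosen with earlier results of these data known. Named genes were the up to 5 per list and direction with the largest non-overlapping differences at a mean of at least 1 CPM, the up to 10 per direction in each test and outside the lists, and Myh11, Epcam, Vil1, Nr3c1, Zbp1, Mlkl, Ripk3, Cxcl9, Gbp6, Reg3g, Mt1, Slc39a4 and Fabp6. Adipoq, B2m, Csf1r, Defa24 and Itgae were named after their values were seen. Of the list genes, 31 were too low to test. Promoter windows came from RefSeq (GRCm38.p6). No 2 libraries of one condition and muscle class agreed within sampling noise, with chi-square per degree of freedom of 4.47 or more. The largest value, 273, was between GRWT zinc ileum replicates 2 and 3.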

Additional observations from a re-analysis of the deposited data

Results flagged for a closer look

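Differences between conditions were the main results that stood out, each by edgeR's quasi-likelihood test of the muscle-rich minus muscle-poor difference in GRWT water against the same difference elsewhere. Against the mean of the other conditions 45 genes passed on the positive and 86 on the negative side, against GRDim water 65 and 97, and against GRWT zinc 2 and 1.

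Among the genes named for their size in these tests, the negative departures from the other conditions were Gbp10 at -5.48, Saa1 at -4.79, Ubd at -4.67, Tgtp1 at -3.74, Mcpt1 at -3.53, Abca12 at -3.40, Mcpt2 at -3.18, Il18bp at -2.92, Cd177 at -2.91, Ceacam10 at -2.89, Cpa3 at -2.87 and Tfrc at -1.36 on the log2 scale. Positive departures were Rdh16f2 at 3.48, Aadac at 2.86, Stbd1 at 2.70, Pcdh19 at 2.35, Hsd17b13 at 2.07, Pkd2 at 2.02, Sypl2 at 1.90, Klhl33 at 1.70, Nlrp9b at 1.64 and Slc6a20b at 1.57. Aadac, a lipid hydrolase, was at 278 CPM in one muscle-poor GRWT zinc library and at 36.7 in the other. Calls were lost in 24 of 29 alternatives for Aadac, in 22 of 29 each for Cd177 and Ceacam10, in 11 of 29 for Slc6a20b, and in 10, 8 and 6 of 28 for Stbd1, Gbp10 and Sypl2. The fitted value of Gbp10, with 3 counts in the muscle-rich class of GRWT water, depends on the prior count and is no bound.

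Against GRDim water the negative departures were Gbp10 at -7.31, Ubd at -5.50, Mcpt1 at -5.27, Saa1 at -4.85, Mcpt2 at -4.71, Cpa3 at -4.63, Hapln1 at -4.58, Abca12 at -4.03, Ceacam10 at -3.29, Cd177 at -3.24, Tgtp1 at -3.21 and Il18bp at -3.18. Positive ones were Pkd2 at 3.08, Hsd17b13 at 3.00, Bglap3 at 2.91, Slc6a7 at 2.33, Wdr54 at 2.20, Grm4 at 2.12, Pirt at 2.09, Klhl33 at 1.98, Cap2 at 1.96, Hoga1 at 1.94 and Nlrp9b at 1.69. Of these calls, Cd177 was lost in 24, Ceacam10 in 23 and Hapln1 in 16 of 30 alternatives, and Wdr54 in 20, Pirt in 17, Hoga1 in 16 and Grm4 and Tgtp1 in 9 each of 29. Pirt, a sensory neuron protein, and Cap2, an actin regulator, were higher in the muscle-rich class of both genotypes. Against GRWT zinc Dnajb1 departed by 1.00, Dnaja1 by 0.86 and Tfrc by -1.61, lost in 8, 11 and 10 of 31 alternatives.

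One library stood away from the others in 1 of 39 summed levels examined. For the enteroendocrine list, which ranged from 427 to 553 CPM over the 5 libraries, the gap beside the outermost library was 0.833 of the range, above the critical value of 0.71 for 5 samples. Chance passes that value in about 1 of 20 groups.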

How the results depend on the processing

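No named gene beyond the threshold or past a test changed direction under any alternative, whereas smaller differences did with epithelial scaling, as given beside Epcam, Muc2, Slc10a2 and Slc39a4 and the list medians. The 3219 genes higher in the muscle-rich class became 932 with a filter of 5 CPM (10912 genes tested), 4720 with epithelial scaling and 2259 with a log2 difference beyond 2, and the 499 on the muscle-poor side became 232, 176 and 100, and 919 with a filter of 10 counts in all (22586 genes tested). Leaving out single libraries gave 3185 to 3643 and 513 to 678. Against the other conditions the 45 positive calls became 122 with DESeq2, 29 with a tissue covariate and 16 without both GRWT water IEC libraries, and ranged from 6 to 591 over single libraries left out. The 86 negative calls became 36 without both IEC libraries and ranged from 18 to 711. Against GRDim water the 65 positive calls became 43 with a filter of 5 CPM, 113 with DESeq2, 43 with the covariate, 297 with only the compared conditions and 20 without both IEC libraries, with a range of 19 to 273. The 97 negative calls became 344 with only the compared conditions and 41 without both IEC libraries, with a range of 30 to 242. Against GRWT zinc the 2 positive calls became 1 with epithelial scaling, 347 with DESeq2, and 0 with only the compared conditions, with the replicate block or without both IEC libraries (0 to 1791). The 1 negative call became 2 with DESeq2 size factors, 57 with DESeq2, and 0 with epithelial scaling and those same settings (0 to 2441). The replicate block had 602 genes at an unadjusted p under 0.05 of 15944. Replicate numbers did not pair the libraries, with correlations of -0.10 to 0.07 between same-numbered deviations in water and zinc, so that value is given once. For the tissue labels the 0 and 0 calls became 10 and 33 with DESeq2 and 1 and 5 without GRWT zinc ileum replicate 3, and ranged from 0 to 2166 and from 0 to 409. Against the other conditions and GRDim water, the lowest counts over single libraries came without GRWT water ileum replicate 3. The highest against the other conditions and GRWT zinc came without GRWT zinc ileum replicate 2, which leaves replicate 3 alone in its class. The highest for the tissue labels came without GRWT water ileum replicate 1, where labels and muscle classes coincide. Against the other conditions and GRDim water, GRWT zinc ileum replicate 3 left out gave 137 and 205 calls and 273 and 241. The cause was not tested. Of named genes, 157 kept their difference within 1 SD in 1438 of 1682 values, and calls were kept in 1176 of 1412 (49 genes, other conditions), 1236 of 1521 (51, GRDim water) and 64 of 93 (3, GRWT zinc). With 2 muscle-poor libraries and 13149951 to 15221001 counts, genes under 0.197 to 0.228 CPM cannot be told from absence.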
